A study of Homo sapiens with 6 samples.

Results

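The genes described here are 5 mouse Toll-like receptor genes (Tlr2, Tlr3, Tlr4, Tlr7 and Tlr9), the co-receptor gene Cd14 and the adaptor gene Myd88. They were taken from the deposited count table by Ensembl gene ID, and all 7 were found among its 77134 rows. The table describes 6 subcutaneous tumours of A549, a human lung adenocarcinoma line, with 1 RNA library per tumour. The labels give the organism as human, but every row of the table carries a mouse gene ID, so the values are read as counts on host genes. In 3 tumours the A549 cells stably carried the lentiviral vector pLV-CMV-HIF1A-AS3-EGFP-Neo, which drives HIF1A-AS3, transcribed antisense to the human HIF1A gene, from the viral CMV promoter. In the 3 control tumours the cells carried pLV-CMV-EGFP-Neo, so EGFP and the neomycin resistance gene were shared by both groups. Each tumour grew from 5000000 injected cells in a BALB/c nude mouse, a host that lacks a thymus and hence most mature T cells but keeps macrophages, neutrophils, natural killer cells and B cells. The sources used here do not give the age and sex of the mice, whether each tumour came from its own mouse, or whether the A549 lines were clones or pools. A p-value therefore sets the difference between the groups against the spread among these 6 tumours, which may in part be technical.

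Toll-like receptors sense microbial products and material released by damaged cells, and macrophages are among the host cells that carry them. Tlr2 and Tlr4 act at the cell surface, where Cd14 hands bacterial lipopolysaccharide to the Tlr4 complex and also assists Tlr2. Tlr3, Tlr7 and Tlr9 sense double-stranded RNA, single-stranded RNA and unmethylated CpG DNA in endosomes. All of these receptors except Tlr3, which signals through the adaptor TRIF, use Myd88, and Myd88 also serves the receptors of the interleukin-1 family. Setting overexpression against control tumours asked whether raising HIF1A-AS3 in the human tumour cells went with a different level of these genes in the mouse host cells, in a study whose title concerns macrophage inactivation.

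Library totals ranged from 4272525 to 4769157 estimated counts in overexpression tumours and from 4167784 to 4262778 in controls. Overexpression replicate 1 stood apart from the other libraries. It had the largest total but a TMM scaling factor of 0.742, against 1.02 to 1.10 in the other 5 libraries, and 17356 genes with 1 count or more, against 18753 to 19010. Overexpression replicate 2 was closer to the controls than to its own group, with a Pearson's r over all genes tested, in log2 CPM, averaging 0.908 to the other overexpression libraries and 0.951 to the controls. For overexpression replicate 3 these averages were 0.920 and 0.923. Levels are given as CPM, estimated counts per 1000000 after TMM scaling. Mouse gene lengths were not used, so a level is compared between libraries and not between genes. Reads of A549 RNA that resemble a mouse gene could be included in these values, and their part was not tested. In whole tumours, fewer cells of a type and less RNA per cell cannot be told apart.

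No member passed the test between the groups. The filter on low counts left 6 of the 7 genes, and 0 of these 6 had an adjusted p below 0.05 (edgeR quasi-likelihood test, Benjamini-Hochberg over 12637 genes), where 2 of all genes tested, or 0.0158%, did. At an unadjusted p below 0.05 the count was also 0 of 6 with edgeR, DESeq2 and limma-voom, against 6.29% of all genes with edgeR, 6.9% with DESeq2 and 5.59% with limma-voom. In CPM after TMM scaling, the groups lay apart in 0 of the 6 genes tested and in 13.2% of all genes tested. They also overlapped in Tlr9, which was not tested. Without that scaling the groups lay apart in Tlr3, lower in overexpression, and the share of all genes on that scale was not computed. Of the 6 genes, 3 had a positive log2 fold change (Cd14, Myd88 and Tlr7) and 3 a negative one (Tlr2, Tlr3 and Tlr4), where 49.4% of all genes tested had a negative one. Scaling by library totals alone turned Myd88 and Tlr7 negative. The median log2 fold change was -0.024 over the 6 members and 0.0065 over all genes tested.

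**Figure D1:**
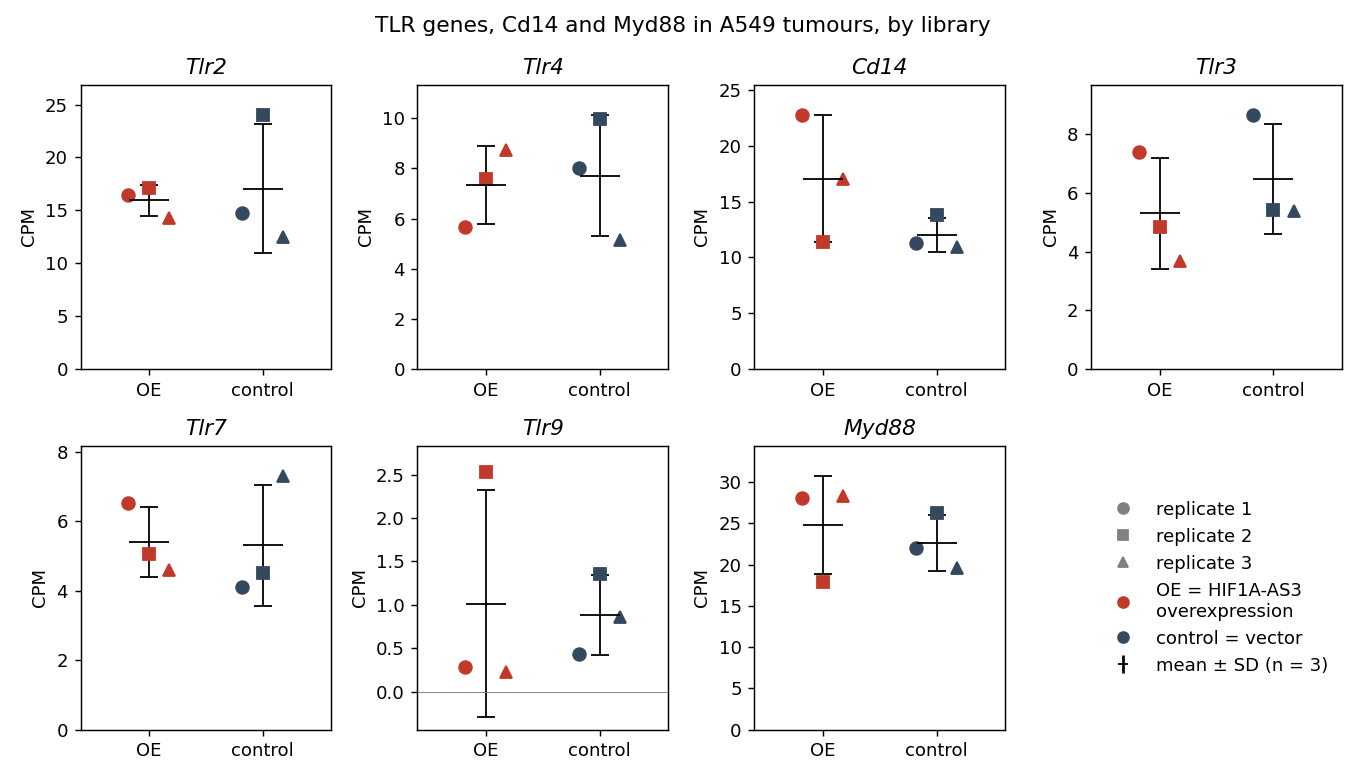
Level of each gene in CPM (vertical axis, from 0 except for Tlr9, where the SD bar runs below 0) in the 3 HIF1A-AS3 overexpression and the 3 vector control libraries. Symbols mark the replicates and black bars the mean ± SD; the groups overlap in every panel, and Cd14 has 2 overexpression libraries (22.7 and 17.0 CPM) above all controls.

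Among the surface receptors, Cd14 had the largest fitted difference of the 6 genes (ID ENSMUSG00000051439.8). Its estimated counts were 79.8, 53.7 and 73.7 in overexpression replicates 1, 2 and 3, against 51.8, 60.5 and 51.4 in control replicates 1, 2 and 3. On the CPM scale these were 22.7, 11.4 and 17.0 in overexpression tumours and 11.2, 13.8 and 11.0 in controls. Overexpression replicates 1 and 3 thus lay above all controls, and replicate 2 lay within the control range. Cd14 averaged 17.0 ± 5.67 CPM in overexpression tumours and 12.0 ± 1.56 CPM in controls (SD, n = 3 each). The fitted log2 fold change was 0.50 (standard error, SE, 0.29, adjusted p = 0.70 in edgeR). The 95% interval of -0.17 to 1.17 spans folds of 0.889 to 2.25. In absolute size the log2 fold change of Cd14 was larger than that of 77.8% of all genes tested.

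Of the single libraries left out, overexpression replicates 1 and 2 moved the log2 fold change of Cd14 most, in opposite directions. Without overexpression replicate 1, the library with the low scaling factor, its log2 fold change was 0.21 (edgeR, unadjusted p = 0.45). Without overexpression replicate 2, the library closest to the controls, it was 0.73 (edgeR, unadjusted p = 0.019, adjusted p = 0.17), in a fit where 20.5% of all genes were below 0.05 before adjustment. Per 1000000 counts of the unscaled library total, Cd14 stood at 16.7, 11.5 and 17.3 in overexpression replicates 1, 2 and 3, against 12.2, 14.5 and 12.1 in the controls. On that scale too, replicates 1 and 3 were above all controls, but replicate 2, within the control range in CPM, was below all controls.

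Tlr4 (ENSMUSG00000039005.14), the lipopolysaccharide receptor that Cd14 serves, did not share this pattern of libraries. It had 20, 36 and 38 estimated counts in overexpression replicates 1, 2 and 3, against 37, 44 and 24 in the controls. These counts correspond to 5.68, 7.59 and 8.74 CPM in overexpression tumours and to 8.0, 9.95 and 5.16 CPM in controls. The highest and the lowest of the 6 libraries were both controls, and the log2 fold change was -0.063 (SE 0.33, 95% interval -0.82 to 0.69, adjusted p = 0.97 in edgeR). Its sign turned without overexpression replicate 1 (0.053) and without control replicate 2 (0.16).

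Because both genes are counted in the same library, the share of Cd14 in the summed counts of Cd14 and Tlr4 does not depend on library scaling. It was 80.0%, 60.0% and 66.1% in overexpression replicates 1, 2 and 3, against 58.4%, 58.1% and 68.0% in the controls. Exact Clopper-Pearson 95% intervals, which cover counting error only, ran from 70.8% to 87.3% in overexpression replicate 1, 49.1% to 70.2% in replicate 2 and 56.5% to 74.8% in replicate 3. In control replicates 1, 2 and 3 they ran from 47.5% to 68.8%, 48.1% to 67.7% and 56.2% to 78.3%, so the interval of overexpression replicate 1 met those of overexpression replicate 3 and control replicate 3. Overexpression replicate 1 was the highest of the 6 libraries, and the other overexpression libraries lay within the control range. The group means were 68.7% ± 10.3 in overexpression tumours and 61.5% ± 5.63 in controls (SD, n = 3 each). The share mixes genes of unknown length and is read only between libraries.

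**Figure D2:**
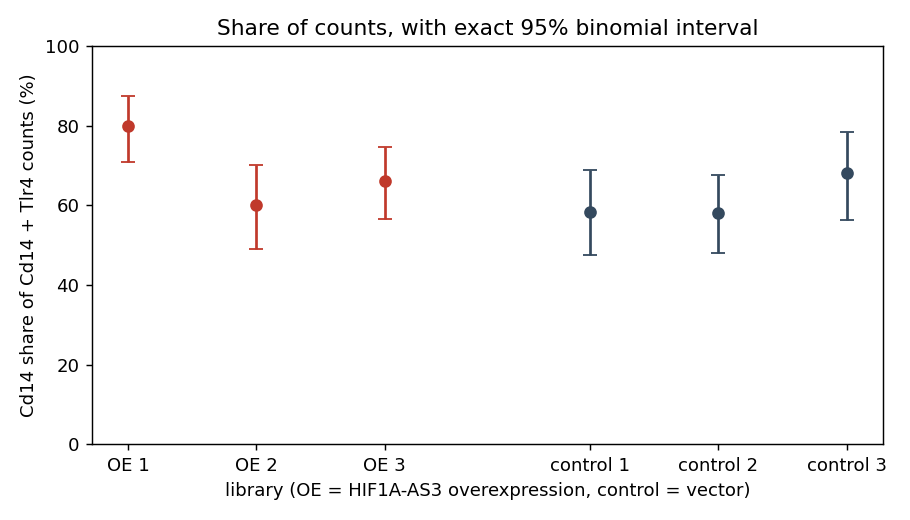
Share of Cd14 in the summed estimated counts of Cd14 and Tlr4 (vertical axis, percent) in each library, with exact 95% binomial intervals for counting error. Overexpression replicate 1 is highest at 80.0%; the other 5 libraries lie between 58.1% and 68.0%.

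Tlr2 (ENSMUSG00000027995.11), the receptor for bacterial lipoproteins, had 58, 81 and 62 estimated counts in overexpression replicates 1, 2 and 3, against 68, 106 and 58 in the controls. In CPM these were 16.5, 17.1 and 14.3 in overexpression tumours and 14.7, 24.0 and 12.5 in controls. All 3 overexpression libraries lay inside the control range, whose upper end was set by control replicate 2. Its log2 fold change was -0.096 (SE 0.28, 95% interval -0.75 to 0.55, adjusted p = 0.94 in edgeR). Without control replicate 2 it was 0.23, still with an unadjusted p of 0.38 in edgeR.

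The endosomal receptors were counted less deeply. Tlr3 (ENSMUSG00000031639.13), the double-stranded RNA sensor, had 25.8, 22.9 and 15.6 estimated counts in overexpression replicates 1, 2 and 3, against 39.5, 24.5 and 24.9 in the controls. Its levels were 7.38, 4.85 and 3.68 CPM in overexpression tumours and 8.65, 5.43 and 5.37 CPM in controls. Overexpression replicates 2 and 3 were below all controls and replicate 1 was second only to control replicate 1. Tlr3 averaged 5.30 ± 1.89 CPM in overexpression tumours and 6.48 ± 1.88 CPM in controls (SD, n = 3 each). The fitted log2 fold change was -0.30 (SE 0.37, 95% interval -1.15 to 0.55, adjusted p = 0.84 in edgeR). The value was -0.63 without overexpression replicate 1 and -0.032 without control replicate 1 (edgeR, unadjusted p of 0.13 and 0.94).

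Tlr7 (ENSMUSG00000044583.14), a sensor of single-stranded RNA, had 23, 24 and 20 estimated counts in overexpression replicates 1, 2 and 3, against 19, 20 and 34 in the controls. Its levels of 6.53, 5.06 and 4.60 CPM in overexpression tumours lay inside the range of the controls, at 4.11, 4.52 and 7.31 CPM. Its log2 fold change was 0.016 (SE 0.34, 95% interval -0.78 to 0.81, adjusted p = 0.99 in edgeR), the value nearest to 0 among the 6 genes. Its sign turned negative without overexpression replicate 1 (-0.17), control replicate 1 (-0.13) or control replicate 2 (-0.082).

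Tlr9 (ENSMUSG00000045322.11), the CpG DNA sensor, was the member that did not pass the filter on low counts. It had 1, 12 and 1 estimated counts in overexpression replicates 1, 2 and 3, against 2, 6 and 4 in the controls. These values amount to 0.284, 2.53 and 0.230 CPM in overexpression tumours and 0.432, 1.36 and 0.859 CPM in controls, in libraries where 3 counts, the upper limit for a gene at 0, equal 0.632 to 0.852 CPM. Overexpression replicate 2 was the highest of the 6 libraries, and replicates 1 and 3 were the lowest. Summed over 3 libraries, 14 counts in overexpression tumours stood against 12 in controls. Tested without the filter, over 25492 genes, its log2 fold change was 0.25 (SE 0.94, 95% interval -1.65 to 2.16, adjusted p = 0.96 in edgeR).

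The share of Tlr9 in the summed counts of the 3 endosomal receptors was 2.00%, 20.3% and 2.70% in overexpression replicates 1, 2 and 3, against 3.28%, 12.0% and 6.35% in the controls. By exact Clopper-Pearson 95% intervals, overexpression replicate 2 (11.0% to 32.8%) did not meet overexpression replicate 1 (0.0506% to 10.6%) but met overexpression replicate 3 (0.0684% to 14.2%) and all 3 controls. The share averaged 8.35% ± 10.4 in overexpression tumours and 7.21% ± 4.42 in controls (SD, n = 3 each).

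Myd88 (ENSMUSG00000032508.9), the shared adaptor, had the most counts behind it. Its estimated counts were 99, 85.2 and 123 in overexpression replicates 1, 2 and 3, against 102, 116 and 90.7 in the controls. In CPM these were 28.1, 17.9 and 28.3 in overexpression tumours and 22.1, 26.2 and 19.6 in controls. On this scale overexpression replicates 1 and 3 were above all controls, and replicate 2 was the lowest of the 6 libraries. Per 1000000 counts of the unscaled total, Myd88 stood at 20.8, 18.3 and 28.8 in overexpression replicates 1, 2 and 3, against 24.1, 27.9 and 21.3 in the controls, so replicate 1 was then below all controls. Myd88 averaged 24.8 ± 5.94 CPM in overexpression tumours and 22.6 ± 3.38 CPM in controls (SD, n = 3 each). The log2 fold change was 0.13 (SE 0.24, 95% interval -0.43 to 0.68, adjusted p = 0.89 in edgeR), -0.0028 without overexpression replicate 1 and 0.32 without overexpression replicate 2.

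**Figure D3:**
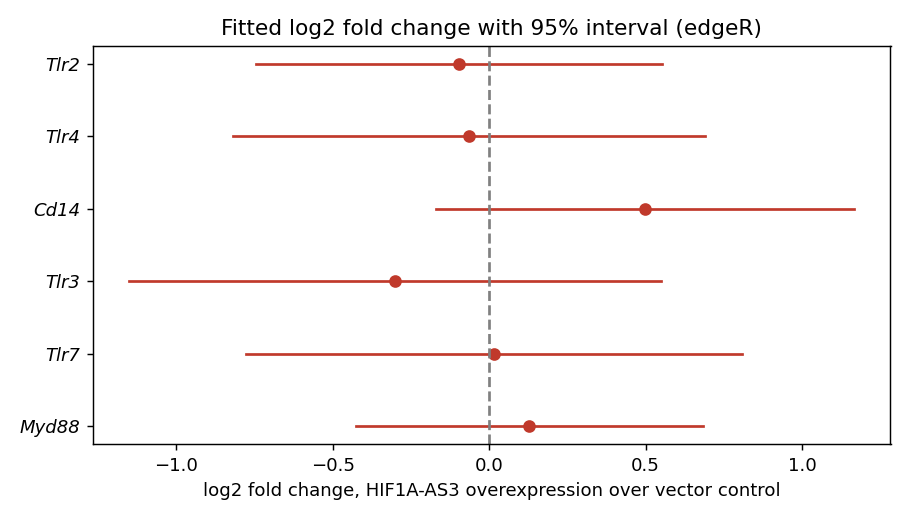
Fitted log2 fold change of HIF1A-AS3 overexpression over vector control (horizontal axis) for the 6 genes tested, with 95% intervals from edgeR; the dashed line marks 0. Every interval spans 0, and that of Cd14 runs from -0.17 to 1.17.

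Relative to the receptors that use it, Myd88 also had its wider observed spread within the overexpression group. Its share in the summed counts of Myd88, Tlr2, Tlr4, Tlr7 and Tlr9 was 49.3%, 35.7% and 50.4% in overexpression replicates 1, 2 and 3, against 44.7%, 39.7% and 43.1% in the controls. The controls all lay between overexpression replicate 2 and the other overexpression libraries. The group means were 45.1% ± 8.17 in overexpression tumours and 42.5% ± 2.56 in controls (SD, n = 3 each).

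Summed by location, the surface genes Tlr2, Tlr4 and Cd14 reached 44.9, 36.0 and 40.0 CPM in overexpression replicates 1, 2 and 3, against 33.9, 47.7 and 28.6 CPM in the controls. The endosomal genes Tlr3, Tlr7 and Tlr9 summed to 14.2, 12.4 and 8.51 CPM in overexpression tumours and to 13.2, 11.3 and 13.5 CPM in controls. Neither sum separated the groups. All 7 genes summed to 87.2, 66.4 and 76.8 CPM in overexpression replicates 1, 2 and 3, against 69.2, 85.3 and 61.7 CPM in the controls. Without TMM scaling the order differed, and the genes together held 0.00643%, 0.00676% and 0.00780% of all estimated counts in overexpression replicates 1, 2 and 3, against 0.00754%, 0.00906% and 0.00674% in the controls.

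The observed spread between libraries, set against counting error, differed between the genes. Counting alone would give Cd14 a coefficient of variation of 12.0% in overexpression tumours and 13.5% in controls, and the observed ones were 33.3% in overexpression tumours and 13.0% in controls. Myd88 exceeded counting in both groups, with 24.0% observed against 9.89% from counting in overexpression tumours, and 14.9% against 9.85% in controls. In CPM, Tlr2 exceeded counting among controls alone. The observed coefficient was 9.29% against 12.2% from counting in overexpression tumours, and 35.8% against 11.4% in controls. For Tlr7 the observed 18.7% in overexpression tumours was below the 21.2% that counting gives, while controls showed 32.7% against 20.3%. Tlr3 exceeded counting in both groups, at 35.7% against 21.5% in overexpression tumours and 28.9% against 18.4% in controls. Tlr4 also did so, at 21.1% against 17.9% in overexpression tumours and 31.3% against 16.9% in controls. For Tlr9 the observed coefficients were 129% against 46.3% from counting in overexpression tumours, and 52.4% against 50.0% in controls. Each of these coefficients comes from 3 libraries, and the difference in spread between groups was not tested. The biological coefficient of variation fitted by edgeR over both groups, which removes counting error, was 22.4% to 30.3% for the 6 genes. It is drawn toward a trend over all genes, from 26.5% for Myd88 to 37.6% for Tlr7, so it is not the spread of each gene alone.

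Over all 6 libraries the correlations between members were of both signs, and the share of positive pairs among all genes was not computed. Of 15 pairs among the 6 genes, 9 had a positive and 6 a negative Pearson's r of log2(CPM + 1) over the 6 libraries. Cd14 and Myd88 had the highest, with r = 0.83 (exact permutation p = 0.042, adjusted p = 0.31 over 15 pairs) and Spearman's rho of 0.77 (exact permutation p = 0.10, adjusted p = 0.77). Without the pair of libraries farthest from the median of Cd14, r was again 0.83. Tlr4 and Tlr7 had the lowest, with r = -0.91 (exact permutation p = 0.021, adjusted p = 0.31) and rho = -0.83 (exact permutation p = 0.058, adjusted p = 0.77). Their r was -0.22 without the pair of libraries farthest from the median of Tlr4. Leaving out the extremes of Tlr4 narrows its range and leaves few libraries, so this step cannot show what the relation rests on. Cd14 and Tlr4, partners in lipopolysaccharide sensing, had an r of -0.096 (exact permutation p = 0.87, adjusted p = 0.99) and a rho of 0.31 (exact permutation p = 0.56, adjusted p = 1). Without the pair of libraries farthest from the median of Tlr4, the r of Cd14 and Tlr4 was 0.58. Other pairs also moved when libraries were left out, in both directions. The r of Tlr3 and Cd14 went from 0.0028 to 0.95 without the libraries farthest from the median of Tlr3. That of Tlr2 and Tlr4 went from 0.63 to -0.66 without those farthest from the median of Tlr2. Over all 6 libraries, no pair passed the adjustment.

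**Figure D4:**
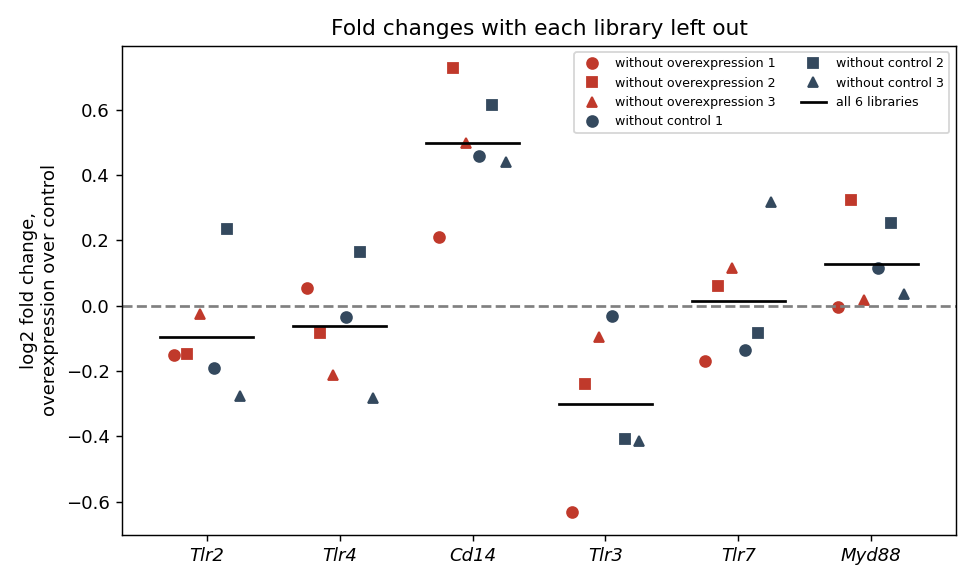
Fitted log2 fold change of HIF1A-AS3 overexpression over vector control (vertical axis) for the 6 genes tested, with each library left out in turn (symbols) and with all 6 libraries (black lines). The values for Cd14 stay between 0.21 and 0.73 and those for Tlr3 between -0.63 and -0.032, while those for Tlr2, Tlr4, Tlr7 and Myd88 fall on both sides of 0.

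The count estimates themselves differed in kind. Tlr2, Tlr4, Tlr7 and Tlr9 had whole-number estimates in every library to within 0.001, whereas Tlr3, Cd14 and Myd88 had non-whole ones, as did 77.8% of all genes tested. A non-whole estimate arises when the quantifier divides reads between annotated features, so reads of these 3 genes may be shared with another feature. Which feature that would be was not tested.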

How the data were processed

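The authors deposited 1 table of estimated counts per mouse gene for 6 tumours, unnormalized per the file header; its name points to salmon, with no version given in the sources used here. The submitters' processing notes name DESeq2, edgeR, featureCounts 2.0.6, HISAT2 2.2.1, Trimmomatic 0.39 and build mm10, with no role for any. All 6 columns were matched to tumours by name. Members, lists and alternatives were chosen with earlier results of these data known. The 7 members were found by Ensembl ID. The 135 symbols of 18 further lists of pathway genes and cell type markers, and genes of like pattern, were not analysed here, because 0 IDs of the table matched the name tables used; the tumours were therefore not checked against cell type markers or HIF1A-AS3, a human RNA. The rule for named genes took the members, genes of these lists and genes of like pattern, so only the members are named.

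Estimated counts were rounded and analysed in R 4.3.3 with edgeR 4.0.16: filterByExpr (12637 genes kept, 99.5% of counts), TMM, robust quasi-likelihood F-test with group only, and Benjamini-Hochberg adjustment at 0.05. Standard errors are the log2 fold change over the square root of F. Counting variation is 1 over the square root of the mean count. Correlations used all 720 orders of the libraries. DESeq2 1.42.0, limma-voom (limma 3.58.1), other scalings and filters, a replicate block and leaving out each library were alternatives. The fit was tested on simulated data. No libraries were duplicates: the closest pair, control replicates 1 and 3, differed by 3.89 times the sampling variance.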

Additional observations from a re-analysis of the deposited data

How the results depend on the processing

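The number of members changed was 0 in edgeR and in all 15 alternatives, and at an unadjusted p below 0.05 it was 0 in every alternative but 1, Cd14 without overexpression replicate 2, where 2659 of 12999 genes (20.5%) were also below it in edgeR. Cd14 stayed positive (0.21 to 0.73) and Tlr3 negative (-0.63 to -0.032) in all 15. Leaving out 1 library at a time gave log2 fold changes of -0.28 to 0.23 for Tlr2, -0.28 to 0.16 for Tlr4, -0.17 to 0.32 for Tlr7 and -0.0028 to 0.32 for Myd88; the cause of these turns of sign was not tested. With library totals only, which moved the median of all genes to -0.21, Tlr7 was at -0.23 and Myd88 at -0.11, or -0.020 and 0.10 relative to that median, and Cd14 was 0.45 above it. The number of all genes changed, 2 in edgeR, was 28 with DESeq2, 7 with limma-voom, 14 without the filter on low counts, 4 with library totals only and 0 with a replicate block (edgeR, 414 at an unadjusted p below 0.05). Leaving out single libraries gave 0 to 14: 14 without overexpression replicate 2, 1 without overexpression replicate 1, and 0 without overexpression replicate 3 or control replicate 1 (edgeR, 947 and 327 at an unadjusted p below 0.05). Same-numbered libraries deviated from their group means with correlations of -0.09, -0.34 and -0.10 across genes, so the numbers were not treated as pairs, and the replicate block changed no call among the members (Cd14 0.46, adjusted p = 0.95 in edgeR). Counts were lowest for Tlr9, at 1 to 12 per library, where counting alone gives a coefficient of variation of 48.0%.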
